A study of Mus musculus with 16 samples.

Results

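The arrays carried 1107 probes for 1080 olfactory receptors, the genes whose symbols start with Olfr, and 207 of these probes, for 205 receptors, were found above background in the cerebellum of every mouse of some group. Above background, or detected, means that Agilent's "well above background" flag was set for at least 0.5 of the probe's spots (the share), and the flag sets the background-subtracted signal against the noise of that array. All 4 arrays of at least 1 of the 4 groups had to pass. Those flags chose the 207 probes out of 56605 on the array, so the groups in which a receptor was detected are given as a description and were not tested. Of the 207 probes, 203 belonged to protein-coding receptor genes and 4 to transcribed pseudogenes. Detection on all 16 arrays was seen for 87 of them, and the other 120 were missing from at least 1 array.

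Olfactory receptors are G protein-coupled receptors of the nose. Each olfactory sensory neuron uses mostly one receptor gene of this very large family and signals through the G protein subunit Gnal, the adenylate cyclase Adcy3 and the cyclic nucleotide-gated channel Cnga2. Outside the nose, transcripts of single receptors have been reported in many tissues, the brain among them.

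RNA was taken from the cerebellar cortex of 16 mice of the strain B6;129S4-Atmtm1Bal/J, with 4 mice in each group. Atm-/- mice, which carry a germline null allele of the DNA damage kinase ATM in every cell, were compared with wild-type (WT) littermates, and within each genotype mice that drank nicotinamide riboside (NR, an NAD+ precursor) were compared with mice that drank water (veh). NR was given at 3.5 mg/ml (12 mM) for 2 months from 6 weeks of age, and the labels give all mice as male and 3.5 months old. The 4 groups are written below as genotype and drink, for example WT veh. Slide 1 held every WT array and slide 2 every Atm-/- array, with veh in row 1 and NR in row 2 of both. Genotype thus cannot be told apart from slide, nor NR from slide row. In Atm-/- NR 4, Atm-/- veh 3, WT NR 4 and WT NR 1 no Y-linked gene was above background, against the labelled sex, and the results were also computed on the other 12 arrays.

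Cerebellar markers were measured on every array, and on 5 arrays markers of other brain regions were high too. All 5 Purkinje cell markers and all 6 granule cell markers were detected on all 16 arrays, with the Purkinje cell gene Pcp2 at signals of 235394 to 363326. Of the 13 markers of olfactory sensory neurons that were measured, 9 were detected on all 16 arrays. That count includes genes that the brain also uses, such as Gnal, at signals of 22022 to 31314. Adcy3 lay at 179 to 332, Cnga2 at 263 to 520 and Omp, the marker of mature olfactory sensory neurons, at 52 to 200. Lhx2, a transcription factor of olfactory neurons and of the forebrain, lay between 10.38 and 13.21 on the log2 scale on WT veh 4, WT NR 2 and 3 and Atm-/- NR 2 and 3, and between 2.20 and 6.36 on the other 11 arrays. Slc17a6, the vesicular glutamate transporter of many brain nuclei, lay between 10.83 and 12.75 on those 5 arrays and between 5.30 and 11.28 on the others. Camk2a, a kinase abundant in the forebrain, was at 14.70 on WT veh 4 and between 11.35 and 12.61 elsewhere. No Atm-/- veh array was among the 5. The results below were therefore also computed on the other 11 arrays, a choice made after these values were seen.

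Most detected receptors were dim. The mean signal over the 16 arrays (background-subtracted fluorescence, arbitrary units) had a median of 53.4 over the 207 probes, with quartiles of 35.4 and 103.9, while the 37834 other probes that passed the same flags had a median of 548. A mean signal under 100 was found for 154 of the 207 probes (74.4%) against 22.0% of the other detected probes, and 7 of the 207 exceeded 1000. At the edge of the rule, 63 probes were detected on all arrays of exactly 1 group, with a median signal of 28.7. Another 65 receptor probes reached 3 of 4 arrays at best, with a median of 22.7. No array detected 435 receptor probes, whose median was 5.64. Probes differ in how strongly they bind, so signals of different receptors were not ranked as transcript amounts.

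A few receptors stood far above background in every mouse. To show the gene starts behind these signals, the windows from 250 bases before to 50 bases after the annotated start of Olfr173, Olfr571 and Olfr1466 are printed from RefSeq (GRCm38.p6), at chr16:58797893-58798192 on the minus strand, chr7:102909788-102910087 on the minus strand and chr19:13341510-13341809 on the plus strand. Capitals mark TATAAA, the core promoter motif, and TAATTA, a homeodomain-type motif that olfactory sensory neuron factors such as Lhx2 recognise, each on either strand (TTTATA is TATAAA read on the other strand).
Olfr173: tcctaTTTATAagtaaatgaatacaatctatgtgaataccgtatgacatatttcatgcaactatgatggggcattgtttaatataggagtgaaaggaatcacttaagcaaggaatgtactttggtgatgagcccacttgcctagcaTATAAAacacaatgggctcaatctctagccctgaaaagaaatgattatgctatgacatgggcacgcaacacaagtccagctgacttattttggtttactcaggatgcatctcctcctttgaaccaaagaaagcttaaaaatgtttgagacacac
Olfr571: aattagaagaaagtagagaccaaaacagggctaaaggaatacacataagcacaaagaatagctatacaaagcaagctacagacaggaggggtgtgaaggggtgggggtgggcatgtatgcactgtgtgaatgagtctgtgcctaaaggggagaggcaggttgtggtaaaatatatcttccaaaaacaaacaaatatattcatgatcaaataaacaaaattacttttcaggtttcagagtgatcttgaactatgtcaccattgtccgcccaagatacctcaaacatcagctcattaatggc
Olfr1466: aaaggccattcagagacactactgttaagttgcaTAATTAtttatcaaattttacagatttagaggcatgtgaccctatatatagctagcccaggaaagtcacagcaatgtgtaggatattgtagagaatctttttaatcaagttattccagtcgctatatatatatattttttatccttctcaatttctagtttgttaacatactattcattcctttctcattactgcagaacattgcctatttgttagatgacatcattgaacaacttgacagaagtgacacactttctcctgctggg
The window of Olfr173 holds TATAAA on both strands, that of Olfr1466 holds TAATTA, and that of Olfr571 holds neither. Among the rest of the 8 brightest receptors, not printed here, Olfr373 holds TATAAA. Olfr544, which is brighter than Olfr1466, and Olfr715b, Olfr1368 and Olfr279 hold neither motif.

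A window was given for 176 of the 205 detected receptors. TATAAA on either strand was in 64 of these windows (36.4%), against 42.3% of the windows of 768 other receptors and 15.7% of the windows of 27025 genes of all kinds. TAATTA was in 33 windows (18.8%), against 18.6% and 6.12%. For 130 of the 176 detected receptors (73.9%) the annotated start was an ATG, against 72.4% of the other receptors and 7.07% of all genes. Most of these windows thus lie around the start codon and not around a mapped transcription start, and a match is a description of the letters only. In gene order, a neighbouring receptor gene was annotated for 188 of 205 detected receptors (91.7%) and for 95% of 875 others, and 44 (21.5%) lay next to another detected receptor, against 20.2%. A neighbouring gene of another kind that was itself detected was found for 16 (7.80%) against 4.34%.

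Olfr173 was the brightest receptor, with a mean signal of 8545, and its level is given here as log2 signal after quantile normalization, which gives every array the same distribution. Olfr173 measured 12.87, 12.69, 12.92 and 12.98 on the WT veh arrays, 13.33, 13.01, 13.02 and 13.08 on WT NR, 12.99, 13.05, 13.08 and 12.94 on Atm-/- veh, and 13.23, 13.12, 13.10 and 13.35 on Atm-/- NR. NR arrays lay above veh arrays of the same genotype without overlap. Olfr571, with a mean signal of 7006, ranged from 12.51 to 13.04 over the 16 arrays, with all 4 groups overlapping. Olfr544 had a mean signal of 3925 and is one of the receptors with a known ligand, the dicarboxylic acid azelaic acid. Its levels were 12.21, 12.03, 11.62 and 11.96 on WT veh, 11.87, 11.86, 11.75 and 12.06 on WT NR, 11.90, 12.35, 11.88 and 11.84 on Atm-/- veh, and 11.80, 11.85, 11.97 and 11.84 on Atm-/- NR. The groups overlapped, and Atm-/- veh 2 stood above the other arrays of its group.

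Olfr1466 varied more from mouse to mouse, from 10.81 on WT veh 2 to 12.74 on Atm-/- veh 2, with overlapping groups. Olfr715b measured 10.05, 9.89, 10.64 and 10.35 on WT veh, 10.95, 10.75, 10.68 and 10.35 on WT NR, 10.09, 10.24, 10.39 and 10.59 on Atm-/- veh, and 11.21, 10.74, 10.59 and 11.00 on Atm-/- NR. All Atm-/- NR arrays were at or above the highest Atm-/- veh array. The NR difference in Atm-/- mice was 0.56 on the log2 scale, with an adjusted p of 0.0899 from limma. Olfr1368, Olfr279 and Olfr373, with mean signals of 1442, 1204 and 844, stayed within 10.23 to 10.72, 9.93 to 10.57 and 9.32 to 9.94, and their groups overlapped. None of these 8 brightest receptors passed an adjusted p of 0.05 in any of the 4 comparisons by limma, at the group size of 4.

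**Figure D1:**
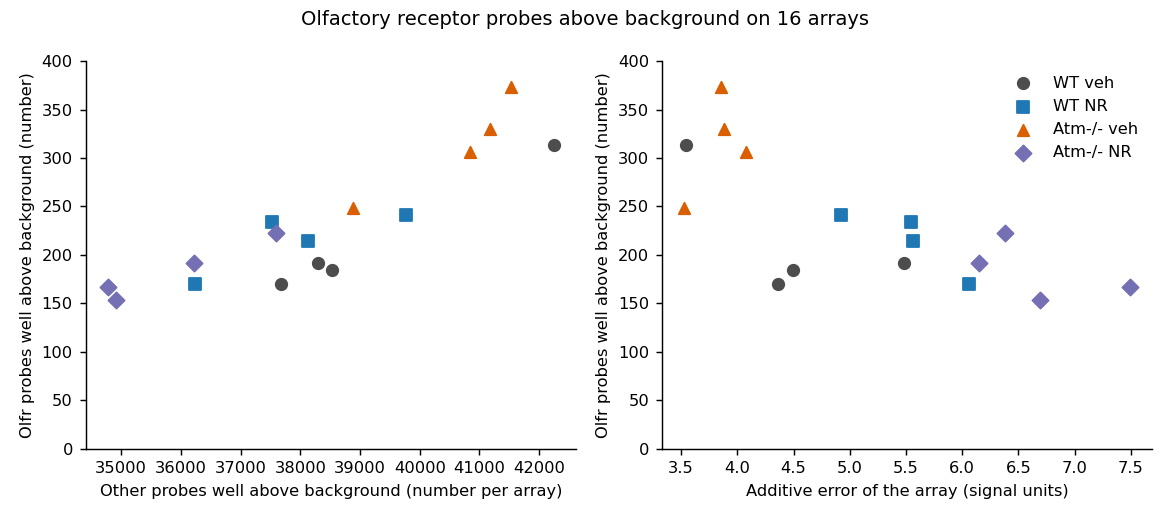
Number of olfactory receptor probes well above background on each of the 16 arrays (vertical axis) against the number of other probes well above background (left) and the additive error in signal units (right); each point is 1 array, with colour and marker giving its group. The arrays with 306 to 373 detected receptors are also those with the most other probes detected, and the Atm-/- NR arrays have the highest additive error of 6.15 to 7.49.

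The first question was whether the number of detected receptors differed between the groups beyond the noise of the arrays. Of the 207 probes, 129 were detected on all 4 WT veh arrays, 120 on all WT NR arrays, 205 on all Atm-/- veh arrays and 98 on all Atm-/- NR arrays, that is 62.3%, 58.0%, 99% and 47.3%. Other probes kept by the same flags followed the same order, at 94.3%, 90.7%, 98.7% and 85.5%. Full detection in Atm-/- veh alone was found for 61 receptor probes (29.5%), against 4.37% of the other kept probes. Since the other kept probes are brighter, this share was also taken in bins of 0.5 of the mean log2 level. In the bin from 4.5 to 5.0 it was 75.8% of the receptor probes against 60% of the others, from 5.0 to 5.5 it was 26.7% against 17.0%, and from 5.5 to 6.0 it was 6.1% against 3.0%. Above 6.0 it was 0 of the receptor probes.

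Counted over all 1107 receptor probes, 170, 184, 313 and 192 were detected on the WT veh arrays, 234, 241, 214 and 170 on WT NR, 373, 248, 330 and 306 on Atm-/- veh, and 223, 192, 154 and 167 on Atm-/- NR. The 4 arrays with the most detected receptors were WT veh 3 and Atm-/- veh 1, 3 and 4, so that the veh groups overlapped. As shares these counts came to 19.4% ± 5.97 (SD, n = 4), 19.4% ± 2.89, 28.4% ± 4.71 and 16.6% ± 2.75. In a bulk sample, fewer cells that express a receptor and less of its RNA per cell cannot be told apart.

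The same arrays also led for all other probes. The 4 arrays with the most detected receptors were the 4 with the most other probes detected, at 40847 to 42246 against at most 39769 on the other arrays. Over all probes, the mean count of detected probes was 40923.5 on Atm-/- veh and 36065 on Atm-/- NR arrays, a difference of -4858.5, with p = 0.0286 by a two-sided exact permutation test, the smallest p that 4 against 4 arrays allow. Atm-/- veh exceeded WT veh by 1520.75 probes, with an exact p of 0.343. WT NR lay below WT veh (difference -1273.75, exact p = 0.371), and Atm-/- NR lay below WT NR by a difference of -2064 (exact p = 0.143).

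The noise that the flag is measured against also differed between the arrays, though not always in the order of the counts. The software's additive error, a noise estimate in signal units, was 4.36, 4.50, 3.55 and 5.49 on WT veh, 5.54, 4.92, 5.56 and 6.06 on WT NR, 3.85, 3.53, 3.88 and 4.08 on Atm-/- veh, and 6.38, 6.15, 6.69 and 7.49 on Atm-/- NR. Every Atm-/- NR array lay above every Atm-/- veh array, with means of 6.68 ± 0.586 and 3.83 ± 0.229 (SD, n = 4; exact permutation p = 0.0286). The lowest signal that earned the flag was 4.38 to 4.67 times the additive error and ran from 16.1 to 32.8 across the arrays. The same dim receptor signal could therefore pass on one array and miss on another. Yet Atm-/- veh 2, with the lowest additive error of all arrays, had the fewest detected receptors of its group, 248. WT veh and WT NR had the same mean of 214.75 detected receptors at mean additive errors of 4.47 and 5.52. The part of the noise in the receptor counts was not tested.

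With 1 signal level for all arrays, the mean receptor counts of Atm-/- veh and Atm-/- NR came closer, from 314.25 and 184 by the flag. Those of WT veh and WT NR, both 214.75 by the flag, moved apart. At a signal of 42.752, the counts were 93, 111, 158 and 125 on WT veh, 158, 152, 147 and 122 on WT NR, 201, 109, 178 and 165 on Atm-/- veh, and 180, 138, 136 and 153 on Atm-/- NR. Their means were 121.75, 144.75, 163.25 and 151.75, so that Atm-/- NR lay next to Atm-/- veh and above WT veh, and all 4 groups overlapped. At a quantile normalized log2 level of 5.444, the mean counts were 112.25, 132.75, 149 and 146. There the arrays ran from 105 to 125 on WT veh, 117 to 149 on WT NR, 137 to 166 on Atm-/- veh and 140 to 160 on Atm-/- NR. Every Atm-/- array thus lay above every WT veh array at this level, while WT NR overlapped with all other groups.

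**Figure D2:**
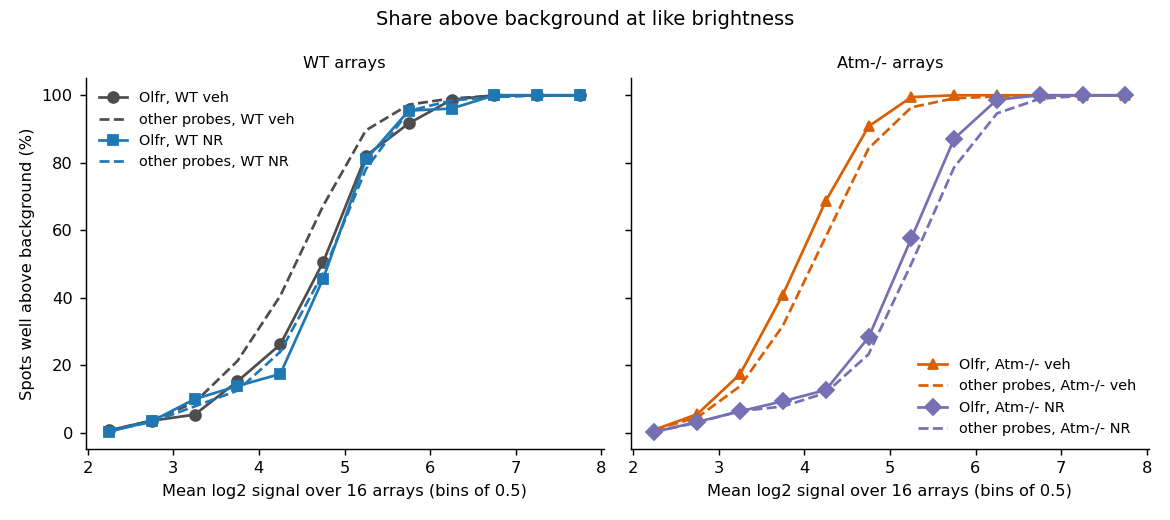
Percentage of probes well above background (vertical axis) against their mean log2 signal in bins of 0.5 (horizontal axis), for receptor probes (solid lines, markers) and all other probes (dashed lines), with WT arrays in the left and Atm-/- arrays in the right panel and each value taken over the 4 arrays of the group. In both kinds of probe the Atm-/- veh line lies above the other groups in the dim bins, and all lines meet at the bright end.

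Receptor probes were also set beside other probes of the same brightness, in bins of 0.5 of the mean log2 level. On WT veh arrays the share of detected receptors was lower than that of like-bright other probes, by -2.85, -3.42, -2.43 and -2.98 percentage points. The differences were 1.99, -1.85, -0.050 and -0.172 on WT NR, 4.43, 1.74, 2.58 and 0.894 on Atm-/- veh, and 0.876, 1.32, 0.123 and 2.02 on Atm-/- NR. All 4 WT veh arrays were thus below 0 and all 8 Atm-/- arrays above 0. The bins use levels from these same arrays, so no test was made of this order.

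The levels themselves were then compared in limma over 55092 probes without any filter, of which 1063 were receptor probes and 202 of the 207 detected ones. The other 5 detected probes (Olfr361, Olfr536, Olfr96, Olfr75-ps1 and Olfr558) had an outlier spot and no fitted value. In Atm-/- veh against WT veh, 0 receptor probes passed an adjusted p of 0.05 in limma, against 0.0272% of all probes. An unadjusted limma p under 0.05 was found for 99 of the 1063 receptor probes and for 6047 of all 55092 probes. Over the 37253 probes kept by the flags, limma called 0 of the 202 detected receptors, against 0.0537% of the kept probes. Of the 202 detected receptors, 168 were higher and 34 lower, with a median of 0.29 on the log2 scale, while the other kept probes of the same brightness had a median of 0.0031. The 1063 receptor probes had a median of 0.04. Detection in Atm-/- veh chose many of the 202, so their direction in this comparison is partly set by the choice. The groups did not overlap for 27 of the 202 probes, all higher in Atm-/- veh, against 3.2% of all probes higher and 3.02% lower.

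The 4 largest fitted differences upwards in Atm-/- veh were those of Olfr401, Olfr90, Olfr259 and Olfr113, all of which met the rule through Atm-/- veh alone. Of the 4 WT veh arrays, 2 were below background for Olfr401, 2 for Olfr90, 3 for Olfr259 and 1 for Olfr113, where the level is not measured, so the sizes of these differences and their order are uncertain. Olfr401 measured 3.76, 5.15, 6.14 and 4.35 on WT veh, 6.75, 5.11, 7.79 and 3.67 on WT NR, 6.93, 6.78, 7.39 and 6.55 on Atm-/- veh, and 5.26, 5.52, 2.36 and 6.53 on Atm-/- NR. It was high in all Atm-/- veh mice but also in 2 WT NR mice, one of which held the highest level of all, and the WT veh array with the highest level still lay below the Atm-/- veh arrays. The difference was 2.06 (SE 0.93, limma adjusted p = 0.445). A second Olfr401 probe was detected on 2 arrays and differed by 0.01. Olfr113 measured 4.71, 5.45, 5.40 and 4.39 on WT veh and 7.26, 6.36, 6.64 and 6.10 on Atm-/- veh, without overlap, and its difference was 1.60 (SE 0.55, limma adjusted p = 0.345). Olfr90 and Olfr259 differed by 1.98 and 1.67, with limma adjusted p of 0.403 and 0.407. Falls were smaller. Olfr1415 differed by -0.78, with a limma adjusted p of 0.417, and Olfr629, Olfr32 and Olfr974 by -0.50, -0.37 and -0.30.

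**Figure D3:**
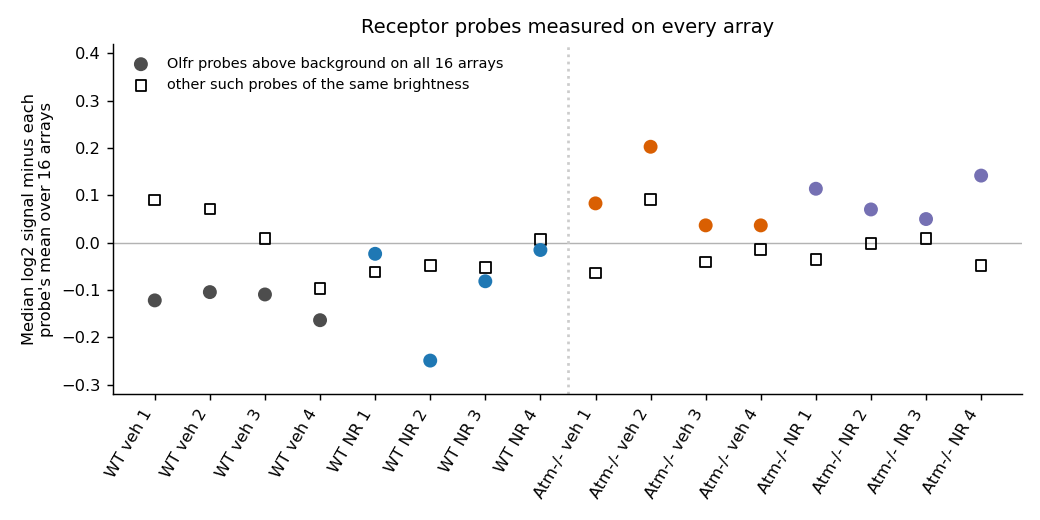
Median over the receptor probes detected on all 16 arrays (filled points) of their log2 signal minus each probe's own mean (vertical axis), for each array (horizontal axis), beside like-bright other probes (open squares). The 8 WT arrays, to the left of the dotted line, lie between -0.25 and -0.02 and the 8 Atm-/- arrays between 0.04 and 0.20 for the receptors.

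The 87 receptor probes detected on every array had to pass in all 4 groups, and 86 of them had a fitted value. Atm-/- NR limited this set most. There alone 20 probes missed full detection, against 4 in WT veh alone and 3 in WT NR alone. Passing thus favoured probes high on Atm-/- NR, and the direction in Atm-/- NR against WT NR may partly follow from the choice. The other probes beside them passed the same flags. In Atm-/- veh against WT veh, 70 of the 86 were higher and 16 lower (81.4% higher), with a median of 0.17. Other probes detected on all 16 arrays and of the same brightness had a median of -0.03, and 46.8% were higher. In Atm-/- NR against WT NR, which shares no array with the first comparison, 67 were higher and 19 lower (77.9%), with a median of 0.19, against 0.0022 and 50.3%. Higher in both were 56 of the 86 (65.1%), and 5 were lower in both. Of 31395 other probes on all 16 arrays, here of any brightness, 28.3% were higher in both. Shares of 81.4% and 77.9% alone bring a large overlap, and agreement of single receptors between the comparisons was not tested.

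Per array, the median deviation of these 86 receptor probes from their own means was -0.12, -0.10, -0.11 and -0.16 on WT veh, -0.02, -0.25, -0.08 and -0.02 on WT NR, 0.08, 0.20, 0.04 and 0.04 on Atm-/- veh, and 0.11, 0.07, 0.05 and 0.14 on Atm-/- NR. All 8 WT arrays lay below 0 and all 8 Atm-/- arrays above it, while the like-bright other probes lay on both sides of 0 in both genotypes. The 8 WT arrays shared 1 slide and the 8 Atm-/- arrays the other, and the 2 cannot be separated here. With scaling to the 75th percentile, 81 and 66 of the 86 were higher in the 2 genotype comparisons, and with normexp background correction 71 and 71. On the 11 arrays with low Lhx2, 70 and 70 were higher, with medians of 0.18 and 0.18.

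Some other families of genes with little known use in the brain were set beside the receptors in these 2 comparisons. The vomeronasal receptors Vmn1r had 13 probes on all 16 arrays, of which 11 were higher in Atm-/- veh than in WT veh (median 0.16) and 11 in Atm-/- NR than in WT NR (0.17). The Vmn2r family had 7 such probes, with 7 and 6 higher (0.78 and 0.33), and the bitter taste receptors Tas2r had 2, both higher in both. The keratin-associated proteins Krtap, which belong to hair, had 22, with 19 and 18 higher (0.21 and 0.25). Of 2 beta-defensin probes, 2 and 1 were higher, and single probes of the trace amine-associated receptors and of the alpha-defensins were higher in both. Over all fitted probes, dim ones included, the medians in Atm-/- veh against WT veh were 0.15 for Vmn1r, 0.41 for Vmn2r and 0.13 for Krtap. They were 0.14 for alpha-defensins and 0.41 for the major urinary proteins, which had 0 probes on all 16 arrays. The medians were -0.0094 for Tas2r, -0.020 for the trace amine-associated receptors and -0.015 for beta-defensins. The families were chosen by hand, and no test was made over a family.

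In WT NR against WT veh 0 receptor probes passed limma's adjusted p of 0.05, against 0% of all probes. An unadjusted limma p under 0.05 was found for 53 of the 1063 receptor probes and for 3892 of all 55092 probes. Of the 202 detected receptors 105 were higher and 97 lower (52.0% higher, median 0.01), while 34.6% of like-bright other kept probes were higher (median -0.14). With scaling to the 75th percentile 153 of the 202 were higher (75.7%, median 0.18), so the split depends on the scaling. For 6 above and 6 below the groups did not overlap, against 1.38% and 2.68% of all probes. Olfr1375 and Olfr1360 had rises of 1.69 and 1.17, with a limma adjusted p of 0.605 for Olfr1375. Both probes of Olfr288 were lower, by -0.91 and -1.10, which rested on WT NR 1 at 2.60 and 3.1. In Atm-/- NR against WT NR, 0 receptor probes passed limma's adjusted p, against 0.0399% of all probes. An unadjusted limma p under 0.05 was found for 124 of the 1063 receptor probes and for 3537 of all 55092 probes. Over the kept probes 0 detected receptors passed the adjusted p, against 0.0537%. There 18 detected receptors lay above and 3 below without overlap, against 3.04% and 1.55%. The contrast of the NR effects in the 2 genotypes called 0 receptor probes by limma, with a lowest adjusted p of 0.823, and 0 of all probes. In this contrast 89 of the 1063 receptor probes and 3121 of all 55092 probes had an unadjusted limma p under 0.05.

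**Figure D4:**
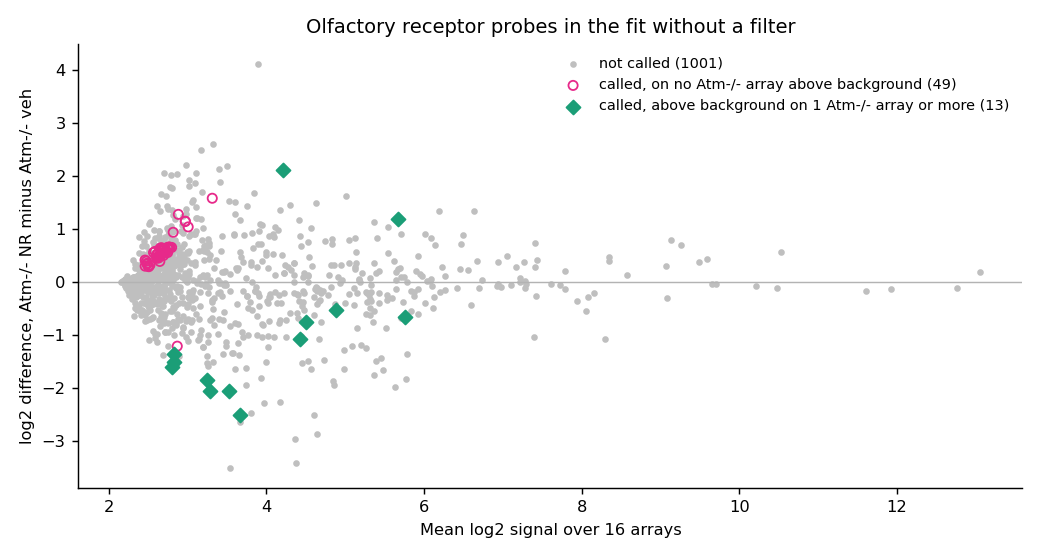
Difference in log2 signal between Atm-/- NR and Atm-/- veh (vertical axis) against mean log2 signal over 16 arrays (horizontal axis) for the 1063 receptor probes with a fitted value, with the 62 called probes split by whether any Atm-/- array detected them. Of the 49 undetected called probes (open circles) 48 lie above 0, and of the 13 detected ones (diamonds) 11 lie below 0.

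Atm-/- NR against Atm-/- veh was the comparison with many calls. In limma 62 of the 1063 receptor probes passed an adjusted p of 0.05 (5.83%), 50 higher and 12 lower, against 6.57% of all probes, which split into 1837 higher and 1780 lower. With quantile normalization the share of receptor probes called was thus close to that of the whole array, but this depended on the scaling. Scaling to the 75th percentile called 242 receptor probes higher and 11 lower, against 4881 and 2117 of all 55092 probes. Normexp background correction called 9 and 6, against 1538 and 1744. When 1 array was left out, the count of 62 ran from 1 (without Atm-/- veh 1 or Atm-/- NR 3) to 80 (without Atm-/- veh 2). On the 11 arrays with low Lhx2 the receptor count was 1, while 42 of all 55092 probes were called higher and 15 lower. Of the 62, 49 were detected on none of the 8 arrays compared, and 48 of these 49 were higher in NR. Their signals were 3.61 to 14.3 on veh and 6.35 to 28.2 on NR arrays, and their median difference was 0.56. For 29 of the 49, no spot on any of the 8 arrays was even significantly above background. Spots without significant signal are written at about the additive error (median ratio 1.0), which was 6.68 on Atm-/- NR and 3.83 on Atm-/- veh arrays. Over the whole array, 585 of the 3617 called probes were likewise detected on none of the 8 arrays, and 555 of these were higher.

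Of the 202 detected receptors, 6 passed limma's adjusted p (2.97%), 1 higher and 5 lower. With the test run only over the 37253 probes kept by the flags, 5 detected receptors passed (2.48%), all 5 higher, against 9.04% of the kept probes. Both shares were below that of the whole array, and Olfr295 was the receptor called in both. Over the kept probes the count was 0 without Atm-/- veh 1 and 15 without Atm-/- veh 2, and it was 0 on the 11 arrays with low Lhx2. Of the 202 receptors, 79 were higher and 123 lower with a median of -0.12, and like-bright other kept probes had a median of -0.17. Detection in Atm-/- veh chose many of the 202, so their direction is partly set by the choice here too. The 86 detected on all 16 arrays split into 47 higher and 39 lower (median 0.02), and the remaining 116 into 32 and 84 (-0.26). In the fit over the kept probes, 98 of the 202 were higher and 104 lower (median -0.01). For 10 above and 16 below the groups did not overlap, against 12.5% and 8.2% of all probes.

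Olfr295 measured 4.80, 4.46, 5.40 and 4.55 on WT veh, where WT veh 3 alone detected it, 5.27, 5.22, 5.71 and 6.38 on WT NR, 5.41, 5.87, 5.93 and 4.89 on Atm-/- veh, and 6.60, 6.47, 6.37 and 7.35 on Atm-/- NR. All Atm-/- NR arrays lay above all Atm-/- veh arrays, by 1.18 (SE 0.32, limma adjusted p = 0.0455, and 0.028 over the kept probes). That call was kept in 9 of 24 alternative settings, and the limma adjusted p ran from 0.036 to 0.122 without 1 array. Olfr786, Olfr368, Olfr1243 and Olfr933 passed over the kept probes alone. Olfr933 is the receptor with steady high signal in this set. It measured 9.20, 9.64, 9.14 and 9.31 on Atm-/- veh and 9.83, 9.66, 9.64 and 9.62 on Atm-/- NR. The groups overlapped, since Atm-/- veh 2 lay within the NR range, and the difference was 0.36 (SE 0.11, limma adjusted p = 0.0646, and 0.046 over the kept probes). Olfr786 measured 5.09, 5.61, 5.37 and 4.69 on Atm-/- veh and 6.16, 6.0, 6.36 and 6.75 on Atm-/- NR, without overlap (difference 1.13, SE 0.34, limma adjusted p = 0.0628, and 0.03 over the kept probes). Olfr368 rose from 5.08, 4.95, 4.74 and 5.16 to 6.05, 5.78, 5.0 and 5.98 over the kept probes (limma adjusted p = 0.0277 there), and Atm-/- NR 3 lay within the veh range and was not detected.

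**Figure D5:**
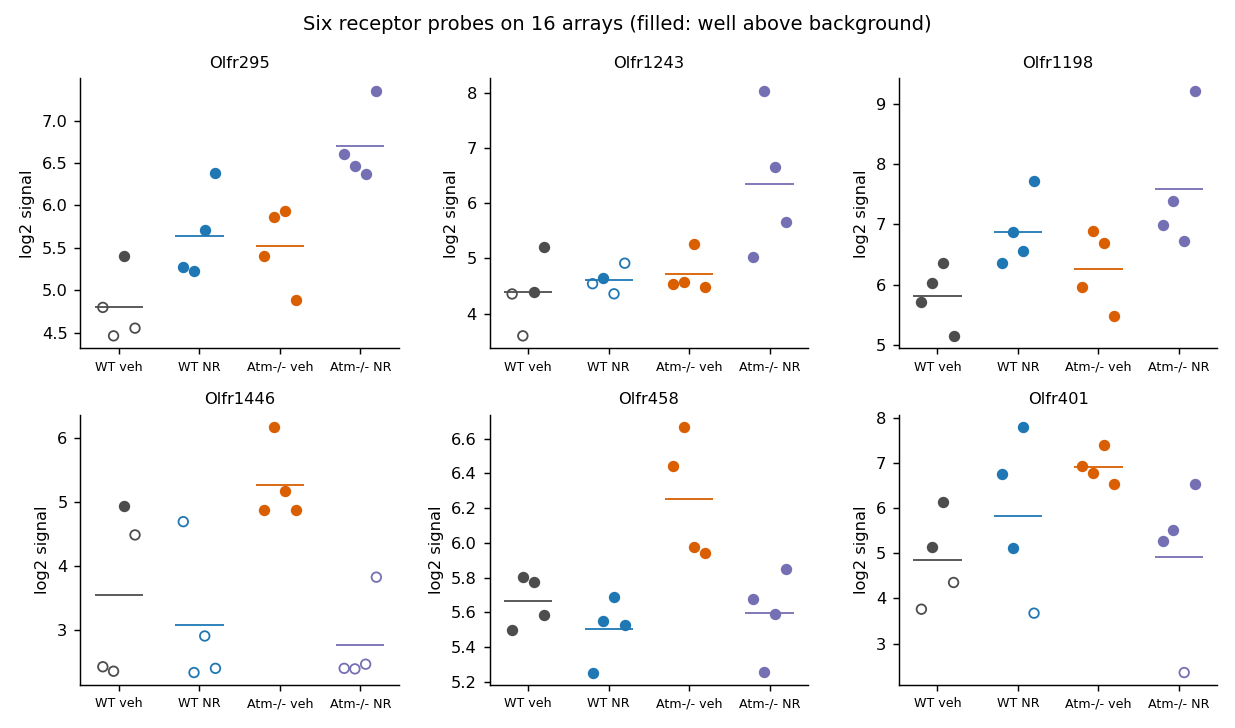
Quantile normalized log2 signal (vertical axis) of Olfr295, Olfr1243, Olfr1198, Olfr1446, Olfr458 and Olfr401 in the 4 groups (horizontal axis), with 1 point for each array, filled where the probe was well above background. Olfr295 lies highest on Atm-/- NR, while Olfr1446 has no filled point there and Olfr1243 and Olfr1198 each have 1 array far above the rest.

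In some receptors 1 or 2 mice carried the difference. Olfr1243 measured 4.54, 4.57, 5.26 and 4.48 on Atm-/- veh and 5.02, 8.04, 6.65 and 5.66 on Atm-/- NR, so that its highest NR arrays were replicates 2 and 3 and Atm-/- NR 1 overlapped with veh (difference 1.63, SE 0.51, limma adjusted p = 0.0739, and 0.044 over the kept probes). These 2 arrays are among the 5 with high Lhx2, and without the 5 the difference was 0.63 (limma adjusted p = 0.343). Olfr930 measured 4.78, 5.35, 5.18 and 9.64 on WT NR and 5.79, 7.51, 6.07 and 10.12 on Atm-/- NR, and replicate 4 stood far above the rest in both groups. Its differences of 1.13 in WT and 1.33 in Atm-/- mice had limma adjusted p of 0.839 and 0.459, and without WT NR 4 the WT difference was -0.01. Olfr1198 measured 5.97, 6.90, 6.68 and 5.48 on Atm-/- veh and 7.0, 7.39, 6.72 and 9.22 on Atm-/- NR, again with the highest value on Atm-/- NR 4 (difference 1.33, limma adjusted p = 0.133). On Atm-/- NR 4 the nasal markers went both ways. Stoml3, a membrane protein of olfactory sensory cilia, stood at 8.87 and Cyp1a2, a marker of olfactory sustentacular cells, at 9.16, while Ano2, Rtp1, Lhx2, Cyp2g1 and Muc2 were below background and Cnga2 and Cnga4 were at the lowest level of their group. Stoml3 was also high on Atm-/- NR 3 (6.69) and WT NR 4 (6.77), where Cyp2g1 reached 8.01. The part of these genes in the values of Olfr930 and Olfr1198 was not tested.

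The 5 detected receptors called lower in Atm-/- NR without a filter were Olfr458, Olfr1446, Olfr224, Olfr31 and Olfr1006. Of these, Olfr1446, Olfr224, Olfr31 and Olfr1006 were detected on all 4 Atm-/- veh arrays and on 0 Atm-/- NR arrays. Detection in Atm-/- veh thus helped choose these 4, and their direction is partly set by that choice. Over the kept probes, 0 detected receptors were called lower. Olfr458 was the one detected on all 8 arrays, with 6.44, 6.67, 5.97 and 5.94 on Atm-/- veh and 5.68, 5.26, 5.59 and 5.85 on Atm-/- NR. The groups did not overlap, and the difference was -0.66 (SE 0.17, limma adjusted p = 0.0388), while the WT veh arrays lay at 5.50 to 5.81, within the Atm-/- NR range. The call was kept in 13 of 25 alternative settings. Olfr1446 measured 4.88, 6.17, 5.18 and 4.87 on Atm-/- veh and 2.39, 2.38, 2.46 and 3.82 on Atm-/- NR, where no array was well above background. For such a probe the level on Atm-/- NR is a bound. The lowest signal that earned the flag, or the probe's own signal where higher, was taken in its place, which gave a level at least 1.34-fold lower in Atm-/- NR for Olfr1446 (fitted difference -2.51, limma adjusted p = 0.0414). The call of Olfr1446 was kept in 11 of 24 settings.

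Olfr224 and Olfr1006 had fitted differences of -1.08 and -0.54 (limma adjusted p = 0.0454 and 0.0492), and the same calculation gave 1.18-fold and 1.07-fold lower. Signals of up to 42.8 missed the flag on Atm-/- NR arrays, where the lowest flagged signals were 27.8 to 32.8. These 2 small folds are therefore not strict bounds. Olfr31, with a fitted difference of -0.75 (limma adjusted p = 0.0267), had no bound above 1. Olfr1508, which also had all 4 Atm-/- NR arrays below background, was at least 2.35-fold lower by the bound but had a limma adjusted p of 0.0674. Among receptor probes outside the 207, Olfr118 measured 2.56, 3.32, 3.89 and 3.89 on Atm-/- veh, all below background, and 5.22, 5.10, 5.97 and 5.82 on Atm-/- NR (fitted difference 2.11, limma adjusted p = 0.0184), with 3 of the 4 NR arrays above background. The same calculation gave 2.95-fold, but its NR mean includes the array below background, so this is not a strict bound. Olfr118 was the 1 detected probe outside the 207 that was called higher, and 6 were called lower, each below background on all Atm-/- NR arrays. Of these 6, Olfr773 was above background on 3 of 4 veh arrays and lower in NR (fitted difference -2.07, limma adjusted p = 0.0297). The calculation gave 1.26-fold, again not a strict bound, since the veh mean includes the array below background. The other 5, namely Olfr689, Olfr1031, Olfr29-ps1, Olfr107 and Olfr816, had fitted differences of -2.06, -1.86, -1.61, -1.52 and -1.36 with limma adjusted p of 0.0484, 0.0392, 0.00882, 0.0482 and 0.0398. They were above background on 1 to 3 veh arrays, and none had a bound above 1.

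Receptors that others have studied outside the nose or as models were mostly dim. Of 10 such receptors, 8 had a fitted value. Olfr1507 was detected on all 16 arrays, at signals of 105 to 248, Olfr1392 on 15 and Olfr73 on 13. Olfr78, a receptor of the carotid body and kidney, was above background on 4 arrays, and Olfr160 on 1. Olfr2, Olfr16 and Olfr17 were above background on no array. None of the 8 passed limma's adjusted p of 0.05 in any comparison.

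Genes that carry the receptor signal were set beside the receptors. Of 20 genes of olfactory transduction, 17 were detected on all 16 arrays, and in Atm-/- NR against Atm-/- veh 0 were called higher and 1 lower by limma. That gene was Gnb1, a G protein subunit of most cell types (difference -0.29, limma adjusted p = 0.045). The list's median differences were -0.04 in Atm-/- veh against WT veh and 0.18 in Atm-/- NR against Atm-/- veh. Of the 13 markers of olfactory sensory neurons, 0 were called in any of the 4 comparisons, with medians of -0.06 and 0.60 in the same order. In the second of these comparisons Lhx2 and Slc17a6, which swing between single arrays, differed by 2.81 and 2.75, with the high levels on Atm-/- NR 2 and 3. Stoml3, Ano2, Cnga4, Omp and Rtp2 were higher there by 2.59, 1.54, 0.84, 0.67 and 0.60, and Cnga2, Gnal and Cngb1 by 0.19, 0.19 and 0.03. Rtp1, Gng13 and Adcy3 differed by -1.16, -0.35 and -0.09. Of 5 markers of olfactory sustentacular cells, the supporting cells of the nose, 2 were detected on all 16 arrays and 0 were called. Among the Purkinje and granule cell markers 0 were called in any of the 4 comparisons.

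For 27 receptors the array held 2 probes, which gives a check on a single probe's detection. Both probes were detected by the rule for 2 receptors (Olfr1372-ps1 and Olfr288), 1 of the 2 for 7 and neither for 18. For Olfr1115, one probe was above background on all 16 arrays and the other on 0. Where 1 probe stands for a receptor, as for all but these 27, that detection rests on that probe alone.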

How the data were processed

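Cerebellar RNA of 16 mice, 4 in each of 4 groups taken from the sample labels, was hybridised in 1 colour (Cy3) to Agilent mouse arrays. The deposited scanner files hold, for each spot, an intensity that the authors' scanner software had background-subtracted, together with its quality flags, and the authors also deposited z-scores (score) made from the normalized arrays. Of 62976 spots, 3671 were controls and 0 were saturated. The log2 intensity of the non-control spots was quantile normalized in limma 3.58.1 (R 4.3.3). The 6849 outlier spots were then left out, and the remaining spots of a probe were averaged. Detection by the flags and the signals before normalization kept the outlier spots. A model with 4 group means (12 residual degrees of freedom) gave differences with Benjamini-Hochberg adjustment over all probes, at a threshold of 0.05. It was fitted to 55092 probes without a filter and to 37253 probes kept by the flags, and was tested on simulated data. Array counts were compared by two-sided exact permutation tests (Python 3.11.15, numpy 2.4.6, pandas 2.3.3). Probe names came from accessions matched to RefSeq (32994 probes), and RefSeq lists 1428 receptor genes of this name. Probe sequences were not used here.

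The receptors, the gene lists and the tests were chosen with earlier results of these data known. Named receptors are the 4 largest rises and 4 largest falls in each of 3 comparisons, the 8 brightest, every receptor probe called, their other probes and the listed genes. Called receptors that no Atm-/- array detected were counted and not named. Alternatives were scaling to the 75th percentile, normexp background correction (offset 50), the deposited z-scores, filters on dim probes, the replicate number as a block, only the 2 groups compared, only the 12 arrays with Y-linked signal, only the 11 arrays with an Lhx2 log2 signal of at most 8, and leaving out each array. Array number limits the precision.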

Additional observations from a re-analysis of the deposited data

Results flagged for a closer look

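In 10 of 156 groups of 4 arrays tested (6.41%), 1 array stood apart from the other 3 by Dixon's test, and chance gives about 1 in 20. Their causes were not tested.

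Among array counts, WT veh 3 had 313 detected receptor probes against 170 to 192 on the other WT veh arrays, and it also had the lowest additive error of its group, 3.55.

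Single high arrays, in log2 signal, were those of Olfr930 on WT NR 4 (9.644, others 4.78 to 5.35), Olfr871 on WT NR 1 (7.176, others 4.96 to 5.01), Olfr974 on Atm-/- NR 1 (5.625, others 4.95 to 5.01), Olfr1446 on Atm-/- NR 4 (3.824, others 2.38 to 2.46, all below background), Olfr1243 on Atm-/- veh 3 (5.262, others 4.48 to 4.57) and Olfr544 on Atm-/- veh 2 (12.35, others 11.84 to 11.90). Single low arrays were those of Olfr259 on Atm-/- veh 4 (5.163, others 6.04 to 6.15), Olfr90 on Atm-/- NR 3 (2.592, others 5.53 to 5.90) and one probe of Olfr288 on WT NR 1 (3.098, others 6.06 to 6.19). The low values of Olfr90 and Olfr288 were below background.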

How the results depend on the processing

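In Atm-/- NR against Atm-/- veh the 62 calls among all receptor probes became 253 with scaling to the 75th percentile (242 higher, 11 lower), 15 with normexp (9 higher, 6 lower), 45 on the deposited z-scores (32 higher, 13 lower), 5 with the flag filter, 3 with probes on all 16 arrays only, 33 with only the 2 groups and 1 on the arrays with Y-linked signal. Leaving out 1 array gave 1 to 80, with 1 without Atm-/- veh 1 or Atm-/- NR 3, 3 without Atm-/- veh 4, 6 without Atm-/- NR 4, 12 without Atm-/- veh 3, 31 without Atm-/- NR 2, 40 without WT NR 3 and 80 without Atm-/- veh 2. The 5 detected receptors called over the kept probes became 9, 10 and 11 with the 75th percentile, normexp and z-scores, 3 with probes on all 16 arrays, 4 with only the 2 groups, 6 with no filter and 1 on the Y-linked signal arrays, and 0 to 15 without 1 array (0 without Atm-/- veh 1, 15 without Atm-/- veh 2). In Atm-/- veh against WT veh, scaling to the 75th percentile called 1 receptor probe, and leaving out 1 array gave 0 to 3 receptor probes and 0 to 1 detected receptors. In Atm-/- NR against WT NR these ranges were 0 to 1 and 0 to 2. The setting of the 11 arrays with low Lhx2 was added once their values were known and has 5 arrays fewer. There 0 receptor probes were called in Atm-/- veh against WT veh and 1 in WT NR against WT veh. In Atm-/- NR the count was 1 against Atm-/- veh and 2 against WT NR. Over all probes, the calls in these 4 comparisons were 1 higher and 4 lower, 24 and 6, 42 and 15, and 28 and 31. The contrast of the NR effects called 1 receptor probe, and 0 detected receptors were called in any of the 4 comparisons.

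Replicate numbers did not pair the mice (24 correlations of same-numbered arrays, -0.15 to 0.26, median -0.008). With the number as a replicate block, 32 receptor probes and 3 detected receptors were called in Atm-/- NR against Atm-/- veh, and 1 detected receptor in Atm-/- NR against WT NR. The block left the array count difference at -4858.5, with an exact p of 0.125. On the Y-linked signal arrays it was -4292.33, with an exact p of 0.100. On the 11 arrays with low Lhx2 it was -4542.5, with an exact p of 0.0667. Both are the smallest p these numbers of arrays allow. Without 1 array, the differences ran from 1000.83 to 2572.83 (Atm-/- veh against WT veh), -1900.75 to -221.667 (WT NR against WT veh), -5455 to -4485.17 (Atm-/- NR against Atm-/- veh) and -2648 to -1437 (Atm-/- NR against WT NR).

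The receptor shares, in the order WT veh, WT NR and then veh and NR of Atm-/-, were 46.9%, 45.6%, 57.3% and 40.6% by the weaker flag for a significant spot, 11.0%, 13.1%, 14.7% and 13.7% at 1 signal level, and 10.6%, 12.5%, 14.0% and 13.7% at 1 normalized level. Without 1 array they ran from 16.4% to 20.7%, 18.6% to 20.7%, 26.6% to 30.4% and 15.4% to 17.5%. The 2 common levels and the leave-one-out shares were chosen after the data were seen. Olfr930 turned from 1.13 to -0.0096 in WT mice without WT NR 4, in a range up to 1.61 without 1 array. Olfr974 turned from -0.30 to 0.0085 with the 75th percentile and ran from -0.62 to 0.019 without 1 array. The 38 named differences kept their side of the threshold in 725 alternatives, lost a call in 170 and gained one in 12.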
